A study of Homo sapiens with 17 samples.

Results

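The genes CDKN1A, MDM2, BBC3, BAX, GDF15, SESN1, FAS, ATF3 and DDIT3 are targets of the transcription factor p53 or genes switched on by cell stress. They were taken by name and not by a measured value, although earlier results of these data were known. They are 9 of the 20037 protein-coding genes of the RefSeq table for GRCh38.p14. Their chromatin was profiled in H1 cells, an established human embryonic stem cell line, by CUT&Tag, in which an antibody guides a transposase that tags the DNA beside it. Cells carried a hairpin against HNRNPU, a nuclear RNA-binding protein (shHNRNPU#1 or shHNRNPU#2), or a control hairpin against luciferase (shLUC). All of these cells had received virus and puromycin, while the HNRNPU libraries came from untransfected cells. H3K27ac, a mark of active promoters and enhancers, and H3K4me1, a mark of enhancers, each had 2 libraries per hairpin. POLIIS2P, an RNA polymerase II antibody by its name, had 1 library of shHNRNPU#1 and 2 of shLUC, and HNRNPU had 2. A single cell line was used, and nothing states that repeats were separate cultures, so p-values measure only the spread between these libraries.

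p53 is a sequence-specific activator that is kept low by MDM2, itself a p53 target, so that both form a feedback loop. When p53 is stabilised by damage or other stress, it turns on genes that stop the cell cycle, genes that drive apoptosis and genes of the oxidative stress response. ATF3 and DDIT3 are best known from the integrated stress response, in which the factor ATF4 is made when general translation is slowed. Human embryonic stem cells are known for a p53 pathway that readily leads to apoptosis.

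A value here is the strength of a peak summit within its own list. Each library was deposited as a list of summits with a score, and a percentile of 99 means that 99% of that list's summits scored no higher. The value of a gene is the percentile of the strongest summit from 10 kb before to 10 kb after it, with 0 where the window held none. It is a rank and not a read count, and a longer list with more weak summits raises the rank of the same peak. The gene percentile, used beside it, ranks the gene by that summit among all genes of the same library. The 17 lists placed 639 summits in the 9 windows, and summits of different lists within 250 bp of the next were joined into 126 sites. Of these, 32 were found in 1 list, 20 in at least 10 lists and 2 in every list.

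The lists held 147145 to 214333 H3K4me1 summits, 40487 to 90914 H3K27ac summits, 79949 to 87456 POLIIS2P summits and 34649 to 35526 HNRNPU summits, and read depth is unknown. The sample titles and the file names of the 4 shLUC histone libraries give opposite antibodies. The file name was followed here, and the values by title are given beside or after the results. The 20000 strongest summits of each of these 4 libraries were compared with the 20000 strongest of each shHNRNPU histone library. The share within 250 bp of a summit of the other library was averaged over both directions. It was 46.4% to 73.5% with the file-name antibody and 18.2% to 25.8% with the title antibody. The median H3K27ac percentile of 8 pluripotency genes was 86.8 in shHNRNPU and 92.5 in shLUC cells, against 6.63 and 19.7 for 6 genes of other lineages that had a summit in any library. H3K4me1 separated these lists less, with medians of 95.7 and 94.2 against 86.8 and 86.2 for 6 genes of other lineages. RNA and HNRNPU protein were not analysed here, so the extent of the knockdown is not known.

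CDKN1A encodes p21, the cyclin-dependent kinase inhibitor through which p53 halts the cell cycle. It had the highest mean H3K27ac percentile of the 9 genes in both conditions. The H3K27ac percentile was 99.3 and 99.7 with shHNRNPU#1, 99.3 and 99.0 with shHNRNPU#2, and 98.9 and 98.4 with shLUC. All 4 shHNRNPU libraries lay above both shLUC libraries, by 0.686 points on average (exact permutation test, two-sided, p = 0.067, the smallest that 15 assignments allow). On the gene percentile the groups overlapped, with 95.6 to 99.2 in shHNRNPU and 91.5 and 96.2 in shLUC libraries. In all 6 libraries the summit lay 43 to 87 bases before the first base of the RefSeq gene span, chr6:36676463. The RefSeq window table lists 1 start for CDKN1A, chr6:36678714, and the summit lay 2294 to 2338 bases before it. The site, chr6:36676300-36676544, was also in all 6 H3K4me1 lists. Within 1 kb of the listed start, H3K27ac summits were found in only 1 shHNRNPU library (percentile 5.56) and 1 shLUC library (25.6), and the H3K27ac difference there was −11.4 points.

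The sequence before the listed start is printed because HNRNPU, POLIIS2P and H3K4me1 summits fell within 1 kb of it in every list, while the strong H3K27ac peak lay at the upstream end of the gene span. RefSeq GRCh38.p14 gives these 250 bases, chr6:36678464-36678713 on the plus strand, and none of the motifs searched below was found in them. For CDKN1A only this window was searched, so the bases at the strong H3K27ac peak were not.
CDKN1A: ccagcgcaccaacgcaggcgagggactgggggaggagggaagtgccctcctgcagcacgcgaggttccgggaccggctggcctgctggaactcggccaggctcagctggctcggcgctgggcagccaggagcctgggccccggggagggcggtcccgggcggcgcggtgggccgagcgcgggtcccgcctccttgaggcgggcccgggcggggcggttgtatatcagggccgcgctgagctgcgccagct
H3K4me1 had a summit within 1 kb of the start in all 6 libraries, at percentiles of 22.3 and 15.3 with shHNRNPU#1, 80.3 and 73.8 with shHNRNPU#2, and 58.0 and 69.0 with shLUC, so that the 2 hairpins lay on opposite sides of the control. POLIIS2P was at percentile 71.8 there with shHNRNPU#1, and at 33.7 and 0.308 with shLUC. HNRNPU had a weak summit there in both repeats, at 37.3 and 7.63. The strongest H3K4me1 summit of the window was mostly another one, 11.4 kb upstream of the start, and its percentile of 95.3 to 98.9 in shHNRNPU cells overlapped with 95.5 and 97.7 in shLUC cells.

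MDM2 encodes the ubiquitin ligase that marks p53 for degradation. It is transcribed from a first promoter and from an internal promoter that is known to respond to p53, and the RefSeq starts of these lie at chr12:68808172 and chr12:68809017. H3K27ac was at percentile 94.8 and 95.3 with shHNRNPU#1, 90.0 and 92.7 with shHNRNPU#2, and 97.6 and 96.5 with shLUC. All 4 shHNRNPU libraries lay below both shLUC libraries, with a mean difference of −3.85 points (exact permutation p = 0.133). The gene percentiles overlapped, at 69.7 to 90.3 and at 83.3 and 91.8. By the antibodies of the sample titles the difference was −0.176 points and the groups overlapped. In 4 of the 6 libraries the summit lay at chr12:68808668-68808875, between both promoters or inside the internal one, and in the other 2, 1 of each condition, at chr12:68808226.

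The internal promoter is printed because it holds a match to the p53 consensus and because H3K27ac in 4 of 6 libraries, HNRNPU in 1 of 2 and POLIIS2P in all 3 had a summit in it or within 100 bases of it. The strongest POLIIS2P summit was here in 2 of 3 libraries and near the other end of the gene in shLUC repeat 2. The window is chr12:68808767-68809016, plus strand, 250 bases. Capitals mark, in order, a CCAAT box read on the other strand, the AP-1 motif TGANTCA, and the p53 match.
MDM2 internal: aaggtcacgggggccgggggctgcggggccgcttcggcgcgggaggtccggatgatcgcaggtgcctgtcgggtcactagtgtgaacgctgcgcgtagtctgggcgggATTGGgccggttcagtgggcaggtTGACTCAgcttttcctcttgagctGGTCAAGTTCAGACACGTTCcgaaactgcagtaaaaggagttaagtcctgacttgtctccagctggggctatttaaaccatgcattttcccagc
The p53 match begins 94 bases before the start. Among the 35097 RefSeq start windows of the same length, 0.242% hold such a match, 6.57% hold TGANTCA and 32.0% hold CCAAT on either strand. H3K4me1 was absent or weak here and peaked 3.3 kb upstream instead. There its percentile was 87.2 and 79.9 with shHNRNPU#1, 96.4 and 96.8 with shHNRNPU#2, and 90.5 and 96.2 with shLUC. The libraries of shHNRNPU#1 lay below and those of shHNRNPU#2 above both controls, and this difference between the hairpins was not tested.

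**Figure D1:**
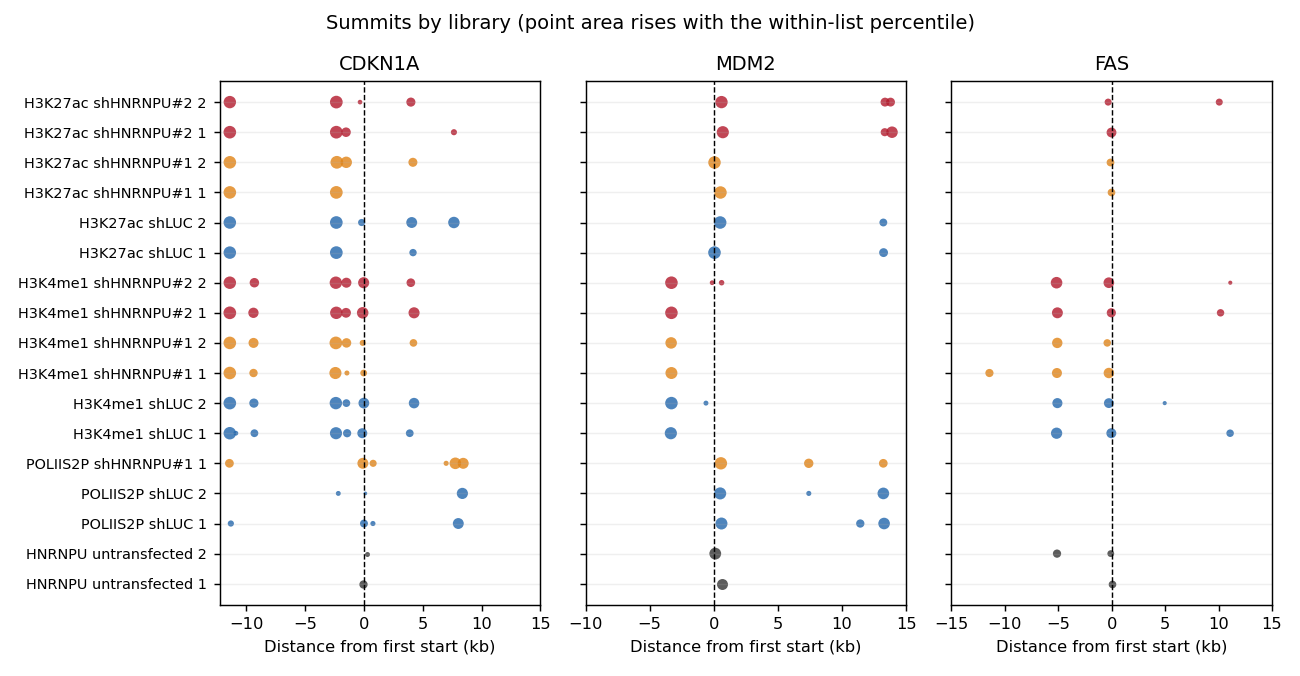
Summits of the 17 lists at CDKN1A, MDM2 and FAS. The horizontal axis gives the distance in kb from the first RefSeq start in the direction of transcription, cut at 15 kb, each row is a library, and the point area rises with the percentile. H3K27ac and H3K4me1 share the sites 2.3 and 11.4 kb before the listed CDKN1A start, and the FAS start has an H3K27ac point in the 4 shHNRNPU rows and in neither shLUC row.

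FAS encodes the death receptor that starts extrinsic apoptosis. It had the lowest mean H3K27ac percentile of the 9 genes in both conditions, and POLIIS2P had no summit in its window in any of the 3 libraries. H3K27ac was at percentile 30.7 and 31.8 with shHNRNPU#1, at 56.2 and 24.3 with shHNRNPU#2, at 22.2 with shLUC repeat 1 and without a summit in repeat 2. All 4 shHNRNPU libraries lay above both shLUC libraries, by 24.6 points on average (exact permutation p = 0.133). The shLUC repeat 1 summit was 27.5 kb downstream of the last start, so the groups also differed in position. A site at the start, chr10:88990464-88990768, was in 4 of 4 shHNRNPU lists and in 0 of 2 shLUC lists. The 2 shLUC libraries whose title says H3K27ac do have a summit there, at 57.8 and 56.1. By title the difference was −31.9 points. These 2 libraries shared 68.2% to 73.5% of their strongest summits with the shHNRNPU H3K4me1 libraries. With the shHNRNPU H3K27ac libraries they shared 18.2% to 25.8%. The difference by title may therefore compare different marks, and nothing is concluded from it. On the gene percentile the groups overlapped, at 21.3 to 40.0 and at 26.3 and 0.

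FAS is shown at 2 starts because the site lay at the first and a p53 match lies before the last. The first window is chr10:88990548-88990797, plus strand, and its capitals mark TGANTCA. The second is chr10:88991181-88991430, plus strand, and its capitals mark the p53 match, which begins 122 bases before the start at chr10:88991431. Both windows lie inside the RefSeq gene span, which begins at chr10:88964050.
FAS first: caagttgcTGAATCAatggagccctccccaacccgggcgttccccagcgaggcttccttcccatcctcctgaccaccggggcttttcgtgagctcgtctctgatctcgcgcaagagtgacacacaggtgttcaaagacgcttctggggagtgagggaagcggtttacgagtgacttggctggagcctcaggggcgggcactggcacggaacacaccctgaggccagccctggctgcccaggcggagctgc
FAS last: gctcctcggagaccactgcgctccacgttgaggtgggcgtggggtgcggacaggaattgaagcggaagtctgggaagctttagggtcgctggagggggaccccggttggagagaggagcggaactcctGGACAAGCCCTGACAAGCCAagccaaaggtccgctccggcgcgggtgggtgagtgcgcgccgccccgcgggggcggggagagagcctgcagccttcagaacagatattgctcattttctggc
No summit of any list fell in the second window. H3K4me1 had a summit within 1 kb of a FAS start in all 6 libraries, and its strongest summit of the window was at percentile 64.0 and 63.5 with shHNRNPU#1, 71.0 and 81.0 with shHNRNPU#2, and 75.9 and 59.4 with shLUC. These groups overlapped. The ACTA2 gene, which encodes smooth muscle actin, has its first or last base within 1 kb of the FAS start site. The summits therefore cannot be assigned to FAS alone.

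BBC3 encodes PUMA, a BH3-only protein that disables the anti-apoptotic BCL2 family. Its H3K4me1 summit lay 8.4 to 8.5 kb upstream of the start and was at percentile 97.8 and 98.5 with shHNRNPU#1, 97.3 and 96.7 with shHNRNPU#2, and 96.3 in both shLUC libraries. The shHNRNPU libraries were all higher, by 1.25 points (exact permutation p = 0.133). With a window of 2 kb on either side, which leaves this summit out, the difference was −0.489 points and the groups overlapped, as did the gene percentiles. Its H3K27ac summit was 1.08 to 1.26 kb downstream of the start, at 98.8 and 94.2 with shHNRNPU#1, 92.7 and 91.5 with shHNRNPU#2, and 95.9 and 95.7 with shLUC, and these groups overlapped. A different site, chr19:47227584-47227769 inside the gene, was in 15 of 17 lists and was the strongest of the window for both HNRNPU and POLIIS2P.

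BAX encodes a pore-forming protein of the mitochondrial outer membrane. Its start was marked by H3K27ac in every library, and chr19:48954740-48955839, which includes it, was 1 of the 2 sites found in all 17 lists. H3K27ac was at percentile 98.0 and 97.0 with shHNRNPU#1, 98.7 and 98.4 with shHNRNPU#2, and 98.2 and 98.9 with shLUC. The difference of −0.563 points was within the spread (exact permutation p = 0.467). The strongest H3K4me1 summit of the window lay 16.2 kb downstream, 3.0 kb from an end of GYS1, and was at 90.5 to 96.5 in shHNRNPU and at 92.5 and 94.4 in shLUC libraries. The promoter is printed because summits of every antibody lay in or just downstream of it, those inside it being 5 of H3K4me1 and those of the other antibodies lying past the start. It is chr19:48954625-48954874 on the plus strand, with 2 CCAAT boxes read on the other strand and 4 copies of the E-box CACGTG in capitals.
BAX: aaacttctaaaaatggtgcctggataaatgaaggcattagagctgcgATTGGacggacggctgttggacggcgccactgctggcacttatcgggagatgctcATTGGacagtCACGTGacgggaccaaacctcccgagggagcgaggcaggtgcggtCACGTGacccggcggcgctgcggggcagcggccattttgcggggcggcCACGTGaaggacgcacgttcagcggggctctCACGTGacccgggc
At least 1 CACGTG was found in 6.34% of all start windows. In 1 repeat the strongest HNRNPU summit lay 10.5 kb downstream of the BAX start. It was within 1 kb of the first or last base of the ferritin light chain gene FTL.

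GDF15 encodes a secreted stress hormone of the TGF-beta family. Its H3K27ac was weak and was found in 4 of 6 libraries: 65.9 and no summit with shHNRNPU#1, 68.0 and 84.9 with shHNRNPU#2, and no summit and 82.6 with shLUC. Both conditions ranged from no summit to 82.6 or more, so the difference of 13.4 points was within the spread (exact permutation p = 0.867). It was −27.9 points without shLUC repeat 1 and −36.8 points by title. Where the summit was near the start it lay 21 to 31 bases downstream of it, and it was 3.1 kb upstream in both shHNRNPU#2 libraries. H3K4me1 had its strongest summit 30 to 78 bases downstream of the start in all 6 libraries, at 89.0 and 79.5 with shHNRNPU#1, 84.9 and 92.4 with shHNRNPU#2, and 92.7 and 90.2 with shLUC. An H3K4me1 site 3.1 kb upstream, chr19:18382907-18383191, was in all 4 shHNRNPU lists and in neither shLUC list. It was weak, at percentile 12.4 and 15.4 with shHNRNPU#1 and 15.4 and 4.33 with shHNRNPU#2.

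SESN1 encodes sestrin 1, which links p53 to antioxidant defence and to lower mTORC1 activity. It has a first start at chr6:109094846 and internal starts at chr6:109009552 and chr6:109008988, on the minus strand. H3K4me1 was at percentile 71.2 and 79.0 with shHNRNPU#1, 75.4 and 75.0 with shHNRNPU#2, and 82.3 and 80.5 with shLUC. The shHNRNPU libraries were all lower, with a mean difference of −6.22 points, and of −6.25 and −6.20 points for the hairpins taken singly (exact permutation p = 0.067 over all 6 libraries). The summit compared was not the same one, since it lay 12.5 to 12.6 kb inside the gene in the shLUC and shHNRNPU#2 libraries and 28.9 kb upstream of the internal start in those of shHNRNPU#1. At the first of these sites, chr6:109082273-109082478, the percentiles were 60.3 and 41.2, 75.4 and 75.0, and 82.3 and 80.5 in the same order. The gene percentiles overlapped. H3K27ac was strongest at the internal starts in 5 of 6 libraries, and its percentiles of 85.3, 42.3, 80.9 and 94.6 in shHNRNPU cells lay around those of 90.2 and 89.3 in shLUC cells.

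**Figure D2:**
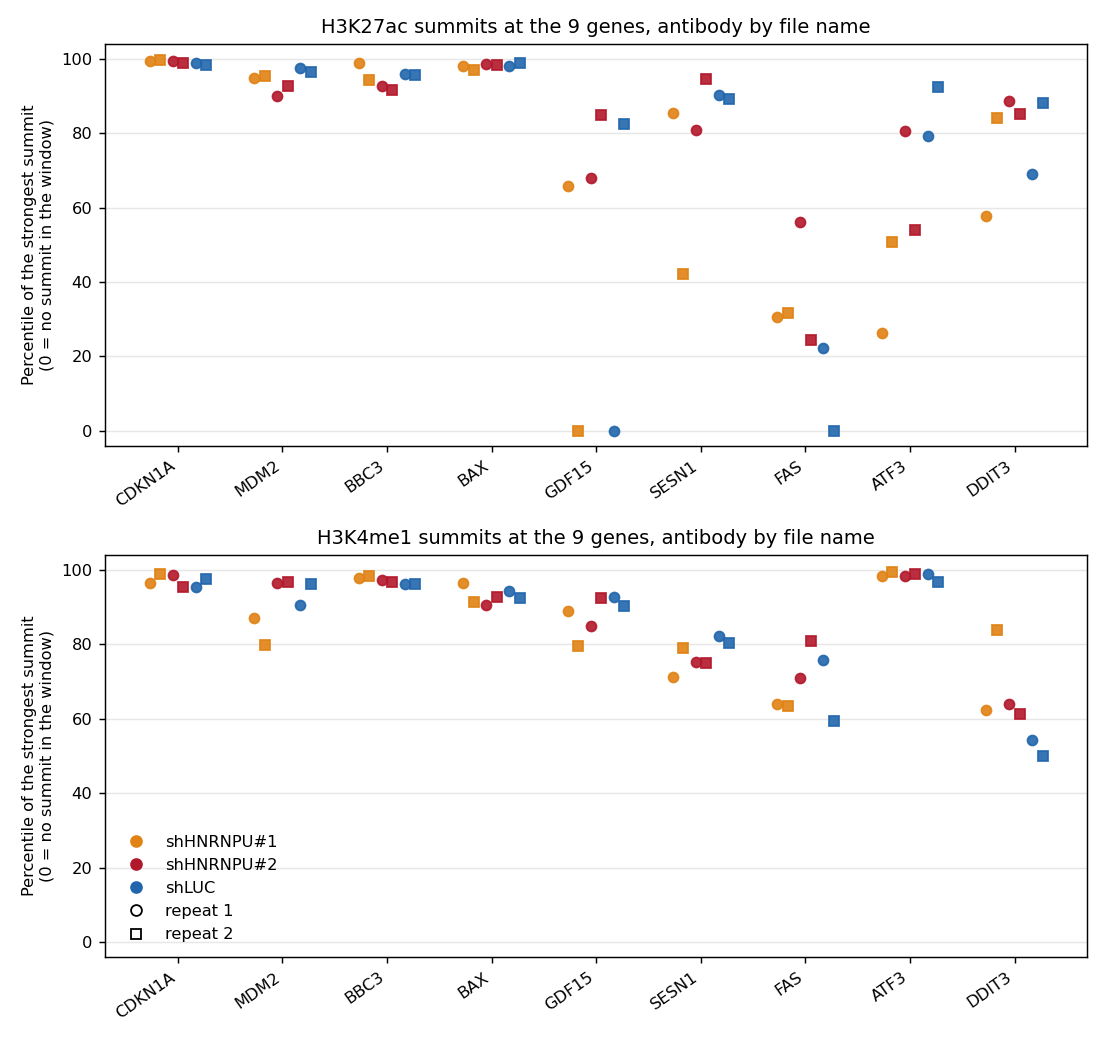
Percentile of the strongest H3K27ac summit (top) and H3K4me1 summit (bottom) from 10 kb before to 10 kb after each gene. Each point is a library, with colours for the hairpins and shapes for the repeats, and 0 means that the window held no summit. CDKN1A, MDM2, BBC3 and BAX sit at 90.0 or higher in every H3K27ac library, while the other 5 genes spread widely within a group.

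ATF3 encodes a transcription factor of the ATF/CREB family that is induced by many stresses. Its strongest H3K27ac summit lay at the site chr1:212608502-212608793, the other site found in all 17 lists, except in shHNRNPU#1 repeat 2, where a site 7.0 kb before the first start was stronger. H3K27ac was at percentile 26.3 and 50.7 with shHNRNPU#1, 80.6 and 54.0 with shHNRNPU#2, and 79.3 and 92.5 with shLUC. The difference of the means was −33.0 points, the largest for H3K27ac among the 9 genes, but 1 shHNRNPU#2 library exceeded 1 shLUC library (exact permutation p = 0.267). On the gene percentile the groups did not overlap, at 31.7 to 54.7 in shHNRNPU and 57.6 and 70.5 in shLUC libraries. The same site had strong HNRNPU summits, at 99.0 and 95.4, and POLIIS2P summits at 91.4 with shHNRNPU#1 and 82.3 and 91.4 with shLUC. It lies 6.3 kb before the last of the 2 starts in the RefSeq window table. Neither of these starts had an H3K27ac, POLIIS2P or HNRNPU summit within 1 kb. Starts outside that table were not used, so the distance of the site to them is not known. The window before the first start, chr1:212565157-212565406, holds a match to the ATF4 composite motif TGATGNAA 191 bases before the start, which 3.15% of all start windows hold. The strongest H3K4me1 summit was 3.4 to 3.5 kb from an end of GARIN4, at 98.3 to 99.4 in shHNRNPU and 98.9 and 96.7 in shLUC libraries, which overlapped.

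DDIT3 encodes CHOP, the factor that drives apoptosis after prolonged endoplasmic reticulum stress. Its start was among the strongest POLIIS2P and HNRNPU sites of the 9 genes. POLIIS2P was at percentile 98.9 with shHNRNPU#1 and at 98.8 and 98.0 with shLUC, and HNRNPU was at 97.1 and 94.4, with 2 POLIIS2P summits and 1 HNRNPU summit on the same base, chr12:57520561. H3K27ac was at 57.7 and 84.1 with shHNRNPU#1, 88.7 and 85.2 with shHNRNPU#2, and 69.1 and 88.0 with shLUC, and these groups overlapped. The strongest H3K4me1 summit lay 1.26 to 1.31 kb upstream of the start in every library. It was at 62.4 and 83.9 with shHNRNPU#1, 64.0 and 61.2 with shHNRNPU#2, and 54.5 and 49.9 with shLUC. All 4 shHNRNPU libraries were higher, by 15.7 points (exact permutation p = 0.2). Within 1 kb of the start the difference was −6.35 points, since shHNRNPU#1 had no summit there, and by the antibodies of the sample titles it was −10.7 points. On the gene percentile the groups overlapped.

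The DDIT3 window, chr12:57520515-57520764 on the minus strand, is printed because the HNRNPU and POLIIS2P summits met in it. Capitals mark TGANTCA and then 2 CCAAT boxes, the last of them on the other strand.
DDIT3: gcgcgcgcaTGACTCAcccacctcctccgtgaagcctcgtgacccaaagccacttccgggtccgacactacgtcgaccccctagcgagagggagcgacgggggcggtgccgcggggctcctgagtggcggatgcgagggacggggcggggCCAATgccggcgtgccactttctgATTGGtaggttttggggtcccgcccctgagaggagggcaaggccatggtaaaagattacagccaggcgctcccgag
The genes MBD6 and LOC128125814 have their first or last base within 1 kb of the strongest summits here. Those summits cannot be assigned to DDIT3 alone, nor can the H3K4me1 summit, 1.1 kb from an end of MBD6.

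**Figure D3:**
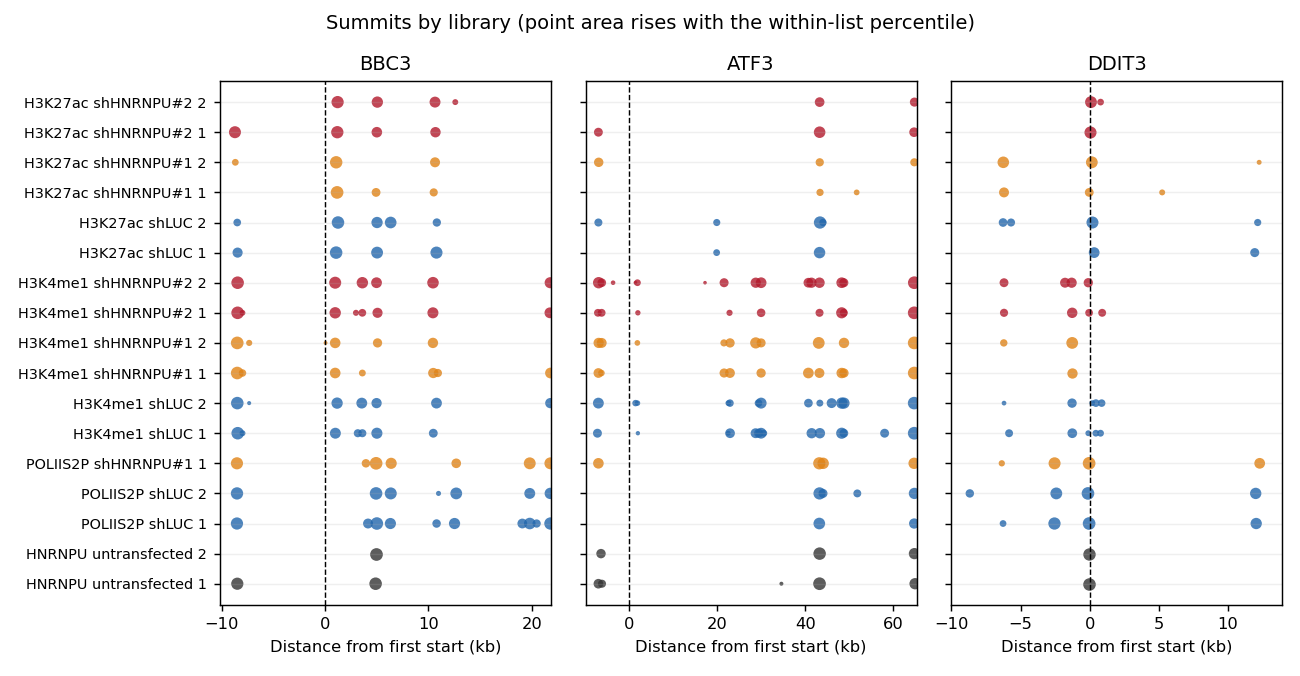
Summits of the 17 lists at BBC3, ATF3 and DDIT3, by distance in kb from the first RefSeq start in the direction of transcription, with a library in each row and a point area that rises with the percentile. HNRNPU and POLIIS2P points stand above one another inside BBC3, inside ATF3 and at the DDIT3 start.

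Across the 9 genes, the H3K27ac values of all 4 shHNRNPU libraries lay above both shLUC libraries for 2 genes, CDKN1A and FAS, where 2.09% of 18003 tested genes did so, and below both for 1, MDM2, where 11.3% did. The lists differ in length, and the median H3K27ac percentile of all genes was 55.2 to 78.4 in shHNRNPU and 71.9 and 82.3 in shLUC libraries. Its part in these counts was not tested. On the gene percentile, 0 of the 9 genes were higher, against 6.32% of all genes, and 1 was lower, ATF3, against 7.53%. The median difference over the 9 genes was −0.563 points, beside −3.68 over all genes tested.

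For H3K4me1, BBC3 and DDIT3 were higher in all 4 shHNRNPU libraries and SESN1 was lower, that is 2 genes against a background of 6.68% and 1 against 8.0% of 18505 tested genes. On the gene percentile none of the 9 was higher (background 7.8%) or lower (8.58%). The median of the 9 differences was 0.789 points, whereas the median level of the 9 genes in each library differed by −3.58 points between the group means, so that these summaries differ in sign. No difference of the 9 genes passed a test corrected over all genes. The exact permutation test could pass no gene, because its smallest possible p, 0.067, exceeds 0.05 before adjustment. Nothing is concluded from its adjusted p, which was at least 0.951 for H3K4me1 and 1.0 for H3K27ac. limma, fitted to the logit of the percentile over all genes with a summit in all 6 libraries, gave adjusted p = 0.879 to 0.999 for the 9 genes with H3K4me1 and 0.905 to 0.994 for the 7 genes that could be fitted with H3K27ac. GDF15 and FAS lacked an H3K27ac summit in some libraries. limma called 1 of 16654 genes for H3K4me1 and 0 of 12287 for H3K27ac, of which 1082 and 611 had an unadjusted p below 0.05.

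With the antibodies of the sample titles, 6 genes did not overlap for H3K27ac and 5 for H3K4me1, in place of 3 and 3. For H3K27ac the differences were then 2.73 points for CDKN1A, 4.57 for BAX, 26.8 for DDIT3, −36.8 for GDF15, −31.9 for FAS and −44.9 for ATF3, and MDM2 overlapped. For H3K4me1 they were 1.80 for BBC3, 12.9 for ATF3, 58.8 for FAS, −5.76 for BAX and −14.6 for SESN1, while DDIT3 overlapped, and GDF15 overlapped at 45.1. Only CDKN1A for H3K27ac, and BBC3 and SESN1 for H3K4me1, stood apart in the same direction under both readings of the antibody. The readings are not equal checks. The shLUC libraries shared 46.4% to 73.5% of their strongest summits with shHNRNPU libraries of the file-name antibody. For the title antibody the share was 18.2% to 25.8%. The title reading may therefore compare different marks, and neither support nor doubt is drawn from it.

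**Figure D4:**
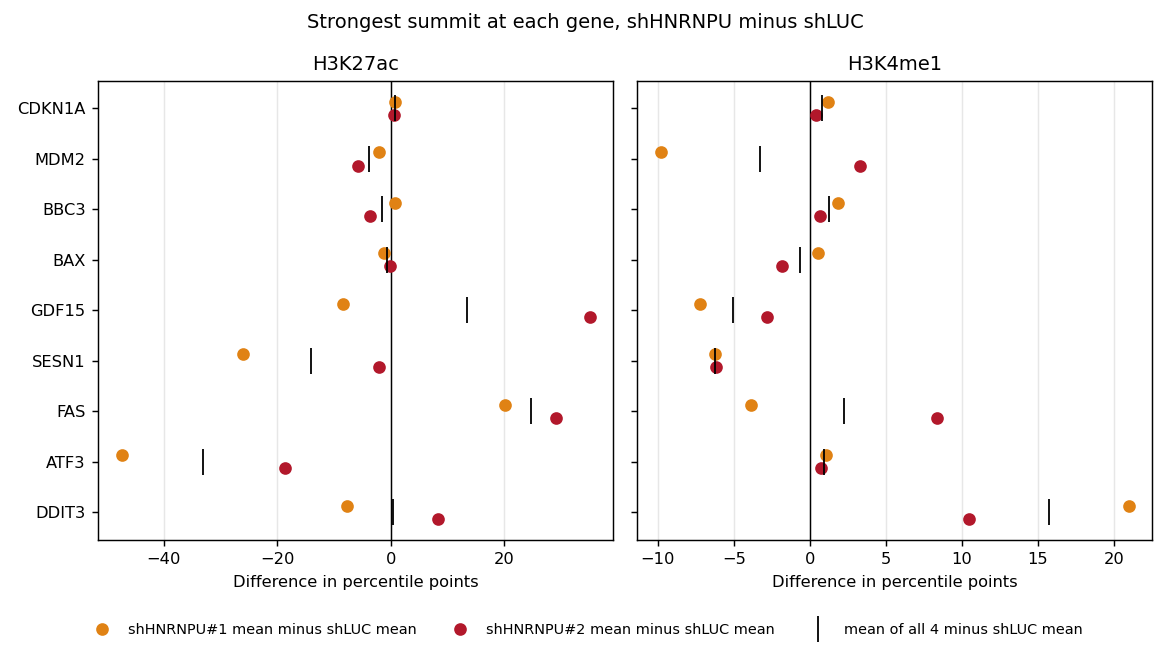
Difference in percentile points between the mean of each shHNRNPU hairpin (coloured points, 2 libraries each) and the shLUC mean, for H3K27ac (left) and H3K4me1 (right). The bar marks the difference of all 4 libraries. The hairpins lie on opposite sides of 0 for BBC3, GDF15 and DDIT3 with H3K27ac and for MDM2, BAX and FAS with H3K4me1.

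Of the 52 H3K27ac sites in the 9 windows, 10 were in all 6 libraries, 1 was in all 4 shHNRNPU and no shLUC library (background 0.251% of 127246 sites at all genes) and 1 in both shLUC and no shHNRNPU library (1.81%). These were the FAS start site and chr1:212585257-212585284 inside ATF3. Of the 93 H3K4me1 sites, 23 were in all 6 libraries, 2 were in shHNRNPU cells only (0.577% of 211375 sites) and 3 in shLUC cells only (1.22%). The former were the weak GDF15 site given above and chr1:212559026-212559112 upstream of ATF3. The latter were at chr1:212587895-212587924 and chr1:212594786-212594812 inside ATF3 and at chr12:57520071-57520075 in DDIT3. ATF3, with 25 sites the most of any of the 9 genes, thus held 4 of these 7 sites.

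POLIIS2P had 1 shHNRNPU library, and its differences were not tested. For CDKN1A its percentile was 81.0 with shHNRNPU#1 against 70.8 and 74.8 with shLUC, with the summit near the 3′ end of the gene. For MDM2 it was 93.4 against 87.1 and 89.8. For BBC3 it was 98.9 against 96.8 and 96.7. These 3 genes and, by smaller margins, SESN1 (87.9 against 79.1 and 86.8) and DDIT3 lay above both controls. The SESN1 summits compared were not the same, at the first start with shHNRNPU#1 and at the internal starts with shLUC. At the internal starts shHNRNPU#1 was at 82.15, between the controls of 79.1 and 86.8. At the first start it was at 87.9 against 78.1 and 76.4. BAX (97.6 against 97.0 and 98.1) and ATF3 (91.4 against 82.3 and 91.4) lay between the controls, and GDF15 (58.6 against 62.0 and 74.2) below them. None of the 9 differed from the shLUC mean by more than 10 points, which 11.1% of 16649 genes did upward and 14.2% downward. The median difference of the 8 genes with a summit was 3.31 points, beside −0.176 over all genes.

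HNRNPU occupied 6 of the 9 windows at a site shared by both repeats within 250 bp, where 63.3% of all genes had such a site. BBC3 had the strongest of these, with a mean percentile of 97.8, followed by ATF3 at 97.2 and DDIT3 at 95.8. SESN1 followed at 86.8, with the site at its first start, 1 summit of which lay 76 bases from an end of CEP57L1. BAX at 62.8 and FAS at 26.4 were weaker, both at a listed start of the gene. CDKN1A and MDM2 had a summit within 1 kb of a start in each repeat, at 37.3 and 7.63 and at 71.8 and 84.0, but the repeats lay more than 250 bp apart. No HNRNPU summit was found at GDF15 in either list, which does not show that the protein was absent. With the deposited list of 48095 intervals for both repeats together, 8 of the 9 genes had a site, as did 84.4% of all genes. The HNRNPU libraries came from cells without a hairpin, so they show where HNRNPU was found and not how it changed.

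**Figure D5:**
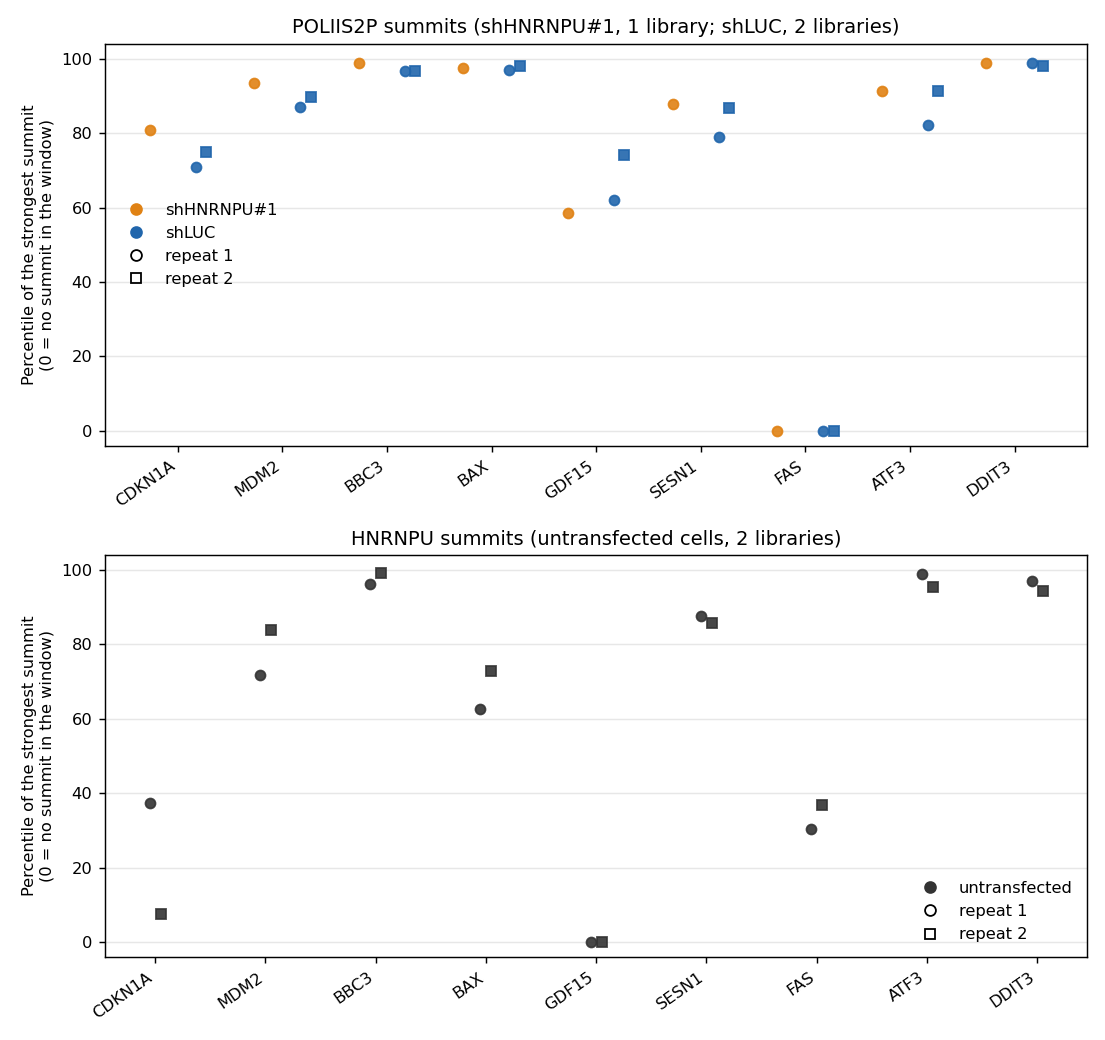
Percentile of the strongest POLIIS2P summit (top, 1 shHNRNPU#1 and 2 shLUC libraries) and HNRNPU summit (bottom, 2 libraries of untransfected cells) at each gene, with 0 where the window held none. BBC3, ATF3 and DDIT3 have HNRNPU points above 94 in both repeats, FAS has no POLIIS2P summit and GDF15 has no HNRNPU summit.

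Other genes of the same pathways were taken as 3 lists. Among 12 regulators of p53, 2 were higher for H3K27ac in all 4 shHNRNPU libraries and 1 was lower, where 2.09% and 11.3% of all genes were. With counts this small, nothing is read from them about the list. USP7, a deubiquitinase that acts on MDM2 and p53, was at 71.7 to 80.9 in shHNRNPU and 36.2 to 59.7 in shLUC libraries. ATM, the kinase that signals DNA breaks, was at 96.8 to 98.4 and 93.2 to 94.5, and CHEK1, a checkpoint kinase, at 93.3 to 98.1 and 98.6 to 98.8. For H3K4me1, 1 was higher (6.68% of all genes) and 0 lower (8.0%). It was TP53BP1, a protein of DNA break repair, at 72.5 to 85.5 and 68.2 to 68.7. Their median differences were −0.741 for H3K27ac and −2.88 for H3K4me1.

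Among 24 other p53 targets, 0 were higher (2.09% of all genes) and 1 was lower (11.3%) for H3K27ac, PLK3, with a difference of −0.286 points. For H3K4me1, 2 were higher and 3 lower, beside 6.68% and 8.0% of all genes. The ones that differed most were BTG2, an antiproliferative gene, at 42.0 to 69.3 in shHNRNPU and 79.5 to 83.1 in shLUC libraries, DDB2, a nucleotide excision repair gene, at 88.9 to 93.7 and 72.7 to 84.3, and POLH, a translesion polymerase, at 51.7 to 71.3 and 71.4 to 75.6. With POLIIS2P, 5 of the 24 were more than 10 points higher and 2 lower, beside 11.1% and 14.2% of all genes. The median differences of this list were −0.391 for H3K27ac, −0.203 for H3K4me1 and 1.41 for POLIIS2P.

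Among 14 genes of the integrated stress response or of endoplasmic reticulum stress, 0 were higher and 3 lower for H3K27ac. The shares of all genes were 2.09% and 11.3%. PPP1R15A, which ends the integrated stress response by restoring translation, was at 27.9 to 86.3 in shHNRNPU and 87.3 to 89.9 in shLUC libraries. EIF2AK3, the kinase PERK, was at 28.2 to 90.6 and 96.1 to 96.3, and DNAJB9, an endoplasmic reticulum chaperone, at 85.0 to 98.5 and 98.8 to 99.2. The shHNRNPU values of all 3 spread over more than the distance to the control (exact permutation p = 0.133, 0.4 and 0.333 in this order). For H3K4me1, 1 was higher (6.68% of all genes) and 0 lower (8.0%), XBP1, at 76.9 to 89.4 and 61.9 to 71.8. The median difference of this list was −7.09 points for H3K27ac, −0.411 for H3K4me1 and −4.91 for POLIIS2P, beside −3.68, −0.234 and −0.176 over all genes, and 1 gene was higher and 3 lower by more than 10 points with POLIIS2P, where 11.1% and 14.2% of all genes were.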

How the data were processed

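CUT&Tag summit lists of 17 libraries were analysed, and groups and repeat numbers follow the sample titles. Per the submitters' processing notes, the authors used cutadapt, Bowtie2, SAMtools, MACS2 and deepTools with the build hg38. Versions, options and any control library are not given in the sources used here. The authors deposited 1 list per library, in which column 5 is read as a −log10 significance (q-value or p-value) at the summit, beginning at 2.0 to 2.01 for the histone marks and at 1.3 otherwise. A further deposited list of HNRNPU intervals of 400 bp has a score of 0 throughout, and only its positions were used. The antibody of the 4 shLUC histone libraries was taken from the file name.

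Scores were ranked within each list. For each of the 20037 protein-coding genes the strongest summit from 10 kb before to 10 kb after the gene was kept. Groups of 4 and 2 libraries were compared by whether they overlapped and by a two-sided exact permutation test over 15 assignments (smallest p = 0.067), adjusted by Benjamini-Hochberg over all genes with a summit in any library, and with limma 3.58.1 in R 4.3.3 on the logit of the percentile. HNRNPU sites needed summits of both repeats within 250 bp. Motifs were sought on both strands of the 250 bases before each of 35097 RefSeq starts. The p53 consensus was read as 20 bases without a spacer, with its core C and G bases fixed and at most 2 mismatches elsewhere. Both the permutation test and limma were tested on simulated data with normal noise. Those data lacked the zeros and the crowding near the top of these percentiles, so they do not show how the tests behave on such values.

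The members and the lists of other genes were chosen with earlier results of these data known. All 9 genes are described. From each other list the text names at most 3 genes per antibody. These had the largest difference among genes whose groups did not overlap and whose hairpins shared a direction. Genes whose first or last base lies within 1 kb of a member's strongest summit are named as well. GYS1 and GARIN4, named as the nearest gene to a summit, were chosen after their values were seen. The alternatives were other windows, summits and ranks, the title's antibody, each hairpin alone, each library left out and a replicate block. Some starts are not in the RefSeq window table, and starts outside it were not used here. Percentiles carry no counting interval, because the lists hold no read counts.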

Additional observations from a re-analysis of the deposited data

Results flagged for a closer look

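MDM2 was singled out because its H3K4me1 difference from shLUC had opposite signs with the 2 hairpins in every library, −9.80 points for shHNRNPU#1 and 3.28 points for shHNRNPU#2. The difference between the hairpins was not tested.

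DDIT3 was singled out because 1 of its 4 shHNRNPU libraries stood apart from the others for each mark. With H3K4me1, shHNRNPU#1 repeat 2 was at percentile 83.9 and the others at 61.2 to 64.0. With H3K27ac, shHNRNPU#1 repeat 1 was at 57.7 and the others at 84.1 to 88.7. The summit compared in that library was the one near DCTN2, because the summit at the DDIT3 start was weaker there, at 43.4. Of the 18 groups of 4 libraries examined, chance alone would set apart about 5%.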

How the results depend on the processing

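For the shHNRNPU minus shLUC difference of the 9-gene median, H3K4me1 moved from −3.58 points to 0.423 with a window of 2 kb on either side, to 4.45 within 1 kb of a start and to −16.3 with the 30000 strongest summits. H3K27ac moved from −3.93 to 2.21 within 1 kb of a start, which turned its direction, and to −9.00 with scores of at least 5. POLIIS2P moved from 5.33 to 33.8 within 1 kb of a start and to 17.4 with the 30000 strongest summits. The count of non-overlapping genes, 3 for each mark, became for H3K4me1 1 within 1 kb of a start, 0 with the 30000 strongest summits, 0 on the gene percentile, 5 by title and 5 with shHNRNPU#1 alone. For H3K27ac it became 1 with the 30000 strongest summits, 1 on the gene percentile, 6 by title and 6 with shHNRNPU#1 alone. Leaving out each library in turn gave 3 to 5 for both marks, and shLUC repeat 1 was the library whose absence gave 5 each time. Of the 6 single differences whose groups did not overlap, 4 turned direction in 5 of 100 values: BBC3 H3K4me1 −0.489 with 2 kb, DDIT3 H3K4me1 −6.35 within 1 kb of a start and −10.7 by title, CDKN1A H3K27ac −11.4 within 1 kb of a start, and FAS H3K27ac −31.9 by title. Of the 12 whose groups overlapped, 10 took the other sign in 33 of 202 values, among them GDF15 H3K27ac, from 13.4 to −14.1 with 2 kb and −36.8 by title, GDF15 H3K4me1, from −5.02 to 45.1 by title, MDM2 H3K4me1, from −3.27 to 9.84 with 2 kb, and CDKN1A and ATF3 H3K4me1, to −15.6 and −10.8 within 1 kb of a start. HNRNPU sites were found at 4 to 8 of the 9 genes over its settings, beside 6. The causes were not tested.

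Repeat numbers did not pair the libraries, since deviations of same-numbered libraries correlated at −0.016 to 0.035 over all genes. With a replicate block the counts stayed at 3 and 3 and the medians at −3.58 and −3.93, and the smallest p this allows is 0.111. With limma and the replicate block, 1 gene for H3K4me1 and 0 for H3K27ac passed.

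The lists hold no reads, so depth is unknown, and a gene without a summit is one below the calling threshold, not one without signal. With 4 libraries against 2, the smallest exact p is 0.067. The windows of several genes hold other genes.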
